A study of Homo sapiens with 80 samples.

Results

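The genes described here are 9 integrin subunits and the tensin TNS4, which were followed through every gene count table of a study of lenalidomide resistance in a T-cell lymphoma. The 10 genes were taken by name. They are the alpha subunits ITGA1, ITGA4, ITGA5, ITGA6, ITGAL and ITGAV, the beta subunits ITGB1, ITGB2 and ITGB7, and TNS4, out of 65284 distinct gene symbols in 5 tables. All 10 had a row in the 3 RNA-seq tables, 8 had one in the DGE table (ITGAL and ITGB7 were not analysed there), and 5 had one in the PRO-seq table (ITGA5, ITGA6, ITGAV, ITGB1 and ITGB2).

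The series held 80 samples, of which 42 libraries in 14 groups of 3 had counts and 38 ChIP-seq samples were not analysed here. SU-DHL-1 and KI-JK are established cell lines, both from anaplastic large cell lymphoma that carries an ALK fusion. Regrown SU-DHL-1 cells were 3 separate pools that had grown out resistant under lenalidomide and had then been without drug for 2 months or more. PRO-seq, which reads RNA that engaged polymerase is still making, compared untreated parental cells with the regrown pools. DGE, which counts transcript ends, compared 18 h of 2.5 µM lenalidomide with DMSO, the solvent, in parental and in regrown cells. A first RNA-seq table compared parental and regrown cells that carried Cas9 and an inducible guide against ZFP91. Those labelled knockout had been given 1 µg/ml doxycycline for 96 h and their controls none, so both arms carried Cas9 and the guide, and doxycycline itself differed between them. A further pair of RNA-seq tables set cells carrying a CSNK2B vector against cells carrying an empty one, in SU-DHL-1 (10% serum) and in KI-JK (20% serum). Apart from the regrown pools, nothing in the labels says that replicates came from separate cultures, so p-values there measure only the spread between these libraries, which may be technical.

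Library totals were 33.5 to 47.2 M counts for PRO-seq, 41571 to 395827 counts for DGE and 14.4 to 28.9 M counts for RNA-seq. ALK and TNFRSF8 (CD30), which define this lymphoma, were present in both lines, at mean levels of 493 and 425 CPM (counts per 1 M counts of the library) in SU-DHL-1 with the empty vector and 371 and 935 CPM in KI-JK. In parental RNA-seq libraries without doxycycline, 7 of 9 listed markers of this lymphoma were at 1 CPM or more, and CD2 and CD4 were at 0. Of 6 listed T cell markers, 2 were at 1 CPM or more there, and the 6 summed to 127 to 138 CPM. CD3E, part of the T cell receptor complex, and CD7 were at 0 in that group. ZFP91 RNA was 111 to 119 CPM in parental cells without doxycycline and 85.8 to 91.7 CPM in those labelled knockout (log2 change -0.34 ± 0.078, adjusted p = 0.158), and the regrown groups overlapped, at 86.5 to 94.3 CPM without and 75.9 to 101 CPM with doxycycline. Cas9 cuts can leave the RNA level unchanged, so these values check the knockout labels only in part. With its vector, CSNK2B stood at 251 ± 5.38 CPM in SU-DHL-1 and 78.9 ± 2.29 CPM in KI-JK (SD, n = 3), a rise of 3.06 ± 0.046 and 2.19 ± 0.063 on the log2 scale.

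Integrins are pairs of 1 alpha and 1 beta subunit that span the membrane and tie the cell to the matrix or to other cells. The alpha subunit largely sets the ligand, and the beta tail binds the adaptors talin, kindlin and the tensins, which link it to actin. ITGB1 pairs with ITGA1 to bind collagen, with ITGA5 to bind fibronectin, with ITGA6 to bind laminin and with ITGA4 to bind VCAM1 and fibronectin. ITGAV subunits bind ligands with an RGD motif such as vitronectin. ITGB2 pairs with ITGAL to bind ICAMs on partner cells, and ITGB7 pairs with ITGA4 to guide lymphocytes to the gut. TNS4, also called CTEN, is a short tensin that sits at focal adhesions and binds beta tails but lacks the actin-binding region of its larger relatives.

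TNS4 was higher in regrown than in parental cells in each assay that measured it. The gene lies on chromosome 17, from 40475834 to 40501623 (GRCh38.p14), and no annotated gene overlaps it. In RNA-seq without doxycycline its level was 7.14, 8.00 and 7.79 CPM in the parental libraries and 55.0, 56.0 and 52.7 CPM in the 3 regrown pools. The lowest regrown pool was thus far above the highest parental library, and the pools stood close to each other. In such bulk libraries more cells with a transcript and more of it per cell cannot be told apart. The log2 change was 2.93 ± 0.12 (SE; edgeR quasi-likelihood test, adjusted p = 6.99e-10), or 7.64-fold. With the ZFP91 guide induced, the parental libraries had 9.68, 9.20 and 8.57 CPM and the regrown ones 64.6, 62.2 and 60.6 CPM. Again the groups were far apart, with a log2 change of 2.77 ± 0.094 (adjusted p = 5.7e-07). Leaving out any 1 library kept the first of these changes between 2.89 and 2.95 and the second between 2.72 and 2.81.

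DGE showed the same direction for TNS4 on few counts. DMSO libraries of parental cells held 1, 3 and 2 counts and those of regrown cells 21, 19 and 20, or 5.83 ± 2.89 against 60.5 ± 10.3 CPM (SD, n = 3). The log2 change was 3.27 ± 0.51 (edgeR, adjusted p = 8.9e-05). This comparison called 6.21% of 5941 genes. TNS4 was the 1 member that passed its filter on low counts, and did so through the regrown group, where it is high, so that count is no support for its change. Under lenalidomide the counts were 1, 1 and 0 in parental and 6, 12 and 8 in regrown libraries, whose CPM values did not overlap. That is a ratio of 16.6, with a 95% counting interval of 4.16 to 145. No member passed the filter in that comparison, which called 2.78% of 4648 genes. With all 4 groups in 1 fit TNS4 did pass it, at 3.97 ± 0.85 (edgeR, adjusted p = 0.00303). It again passed through the regrown groups, where it is high, so that call adds no support to the counts.

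**Figure D1:**
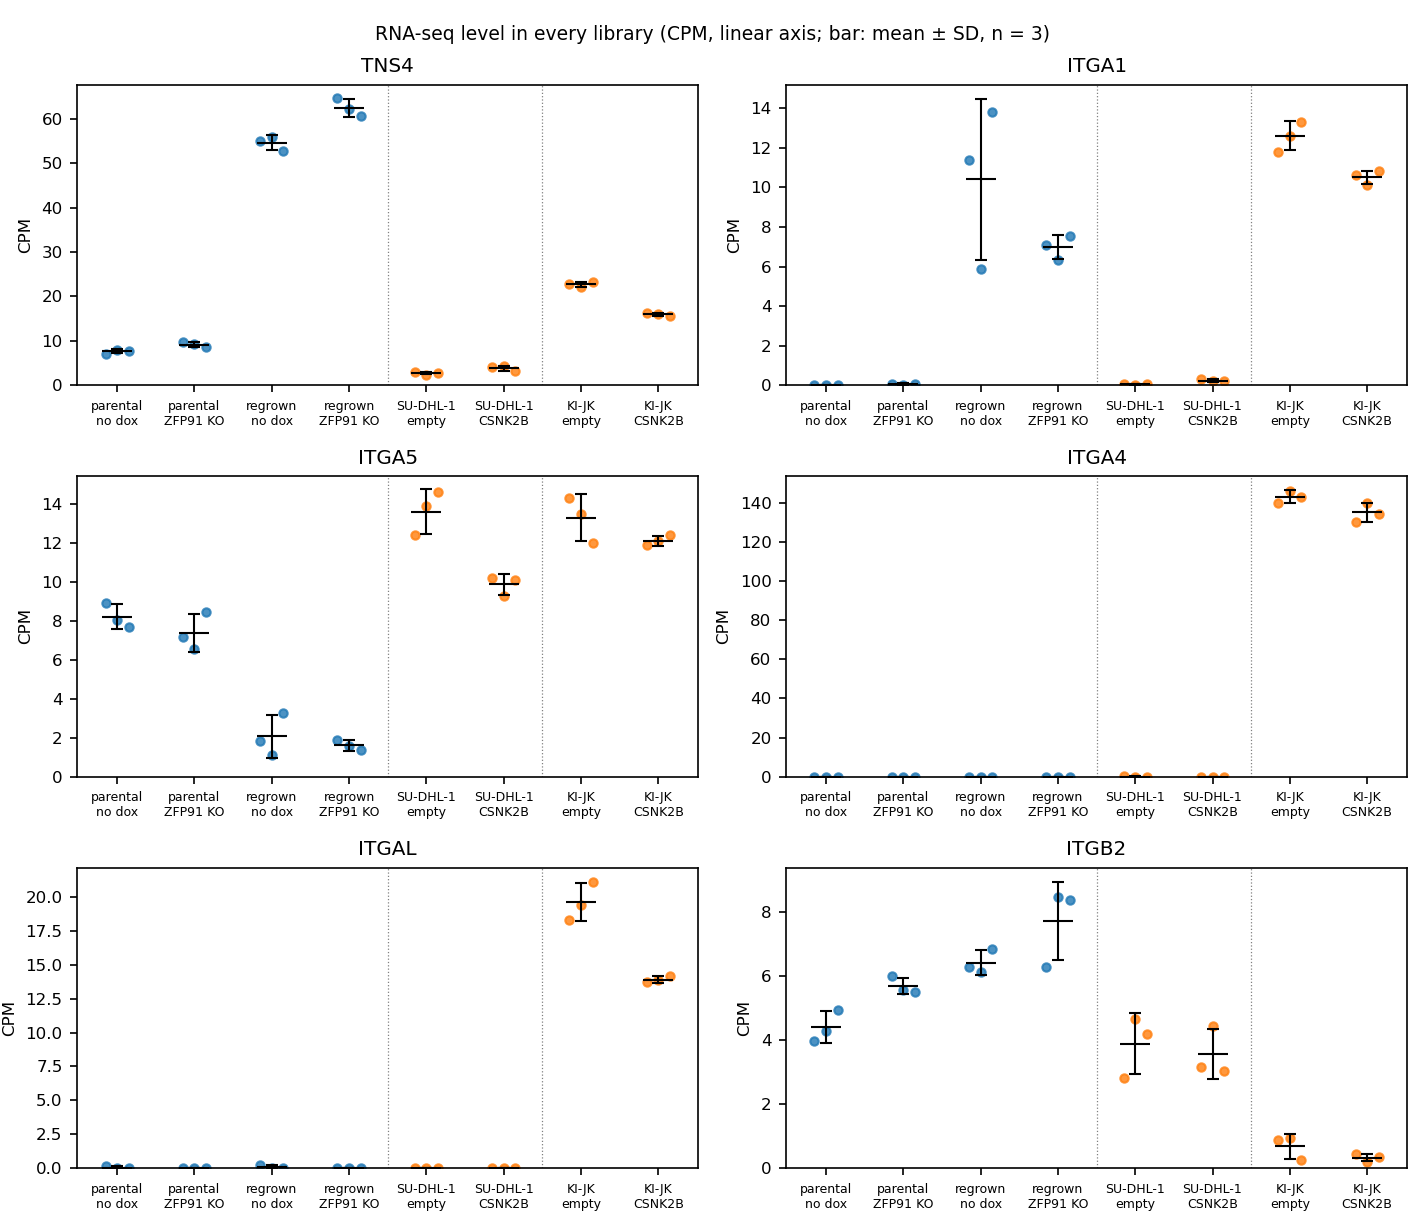
RNA-seq level (CPM, linear axis) of TNS4, ITGA1, ITGA5, ITGA4, ITGAL and ITGB2 in each of 24 libraries; points are libraries, bars the mean ± SD of 3, and dotted lines part the 3 tables. TNS4 and ITGA1 sit high in both regrown groups and in KI-JK, ITGA5 sits low in both regrown groups, and ITGA4 and ITGAL are seen in KI-JK.

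ITGA1, the collagen-binding alpha subunit, went from no counts to a clear level. The 3 parental libraries without doxycycline held 0 counts each, and the regrown pools held 223, 114 and 238, or 11.4, 5.87 and 13.8 CPM. Regrown cells were at least 187-fold higher, taking 3 counts over the parental group as the floor (edgeR, adjusted p = 3.98e-07). The pools all had the transcript, with the second at a lower level than the others. In the libraries labelled knockout the parental group held 1, 0 and 2 counts and the regrown group 163, 120 and 165. This is a ratio of 133 (95% counting interval 45.1 to 645; adjusted p = 5e-06), again with no overlap. In both RNA-seq comparisons ITGA1 passed the filter on low counts only through the regrown group, where it is high. Its calls there are thus no support beyond the counts themselves. DGE held 0 counts of ITGA1 in all 6 parental libraries and 4 in the 6 regrown ones, too few to test.

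The annotated start of ITGA1 is also that of PELO, a ribosome rescue factor on the same strand. ITGA1 spans chromosome 5 from 52787916 to 52959209 and PELO from 52787916 to 52804044 (GRCh38.p14), so RefSeq gives both the same promoter window. Its 250 bases before the start are shown because 1 gene of the pair went from 0 to a clear level while the other was present throughout (chr5:52787666-52787915, plus strand, GRCh38.p14).
ITGA1 and PELO: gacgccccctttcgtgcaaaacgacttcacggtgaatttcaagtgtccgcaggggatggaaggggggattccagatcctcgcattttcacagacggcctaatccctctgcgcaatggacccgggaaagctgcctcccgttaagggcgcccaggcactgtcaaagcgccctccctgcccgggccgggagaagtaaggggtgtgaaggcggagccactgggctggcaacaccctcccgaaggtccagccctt
PELO RNA was 40.0 ± 0.623 CPM in parental and 39.5 ± 1.92 CPM in regrown libraries without doxycycline (SD, n = 3), a log2 change of 0.08 ± 0.10 (edgeR, adjusted p = 0.547). The change at ITGA1 was therefore not seen in PELO RNA. PELO did rise in PRO-seq, by 0.56 ± 0.13 on the log2 scale (adjusted p = 0.0081). How the counting treated reads in overlapping genes is not given in the sources used here, and ITGA1 was not analysed in PRO-seq.

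Of the genes around ITGA1, its nearest integrin neighbour also rose. ITGA2, which encodes the other widely used collagen-binding alpha subunit, starts 0.201 Mb away. Its PRO-seq counts were 44, 32 and 50 in parental and 337, 186 and 916 in regrown libraries. All regrown pools were above all parental libraries, by 3.31 ± 0.46 on the log2 scale (edgeR, adjusted p = 0.000418). In RNA-seq without doxycycline the counts were 2, 2 and 3 against 11, 11 and 17, a change of 2.49 ± 0.71 (adjusted p = 0.0111). ITGA2 passed the filter on low counts there only through the regrown group, where it is high, so that call adds no support to the counts. The median log2 change of the 24 tested genes nearest to ITGA1 was 0.14 in that RNA-seq comparison, with 7 raised and 2 lowered, and 0.12 in PRO-seq, with 5 raised and 2 lowered. The 24 nearest to TNS4 had a median of 0.037, with 9 raised and 6 lowered, against 2.93 for TNS4 itself.

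**Figure D2:**
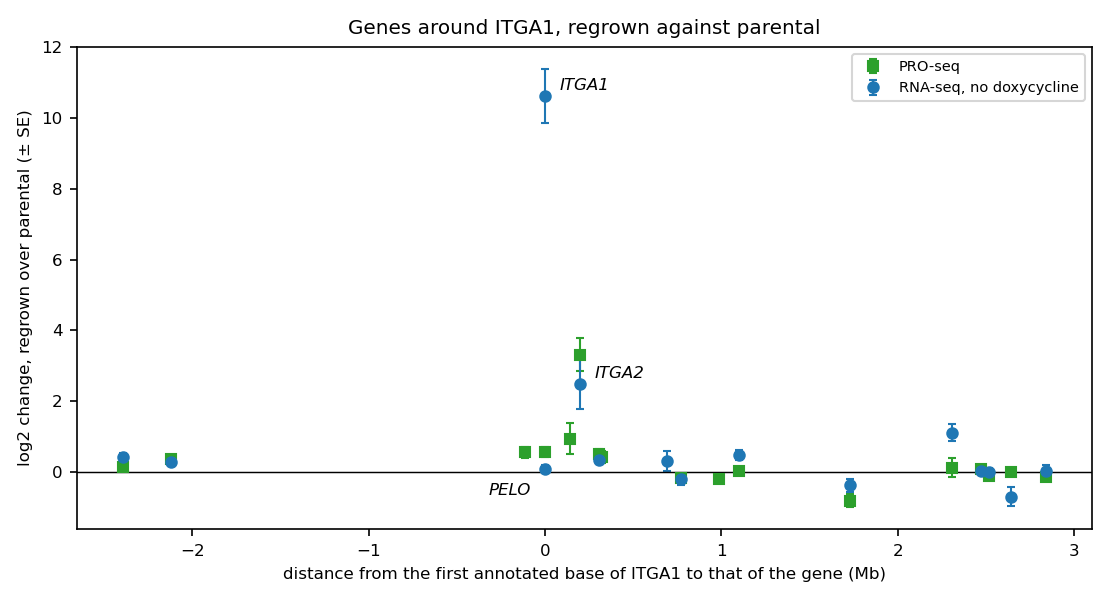
Log2 change of regrown over parental cells (± SE, 3 libraries a group) for tested genes near ITGA1, against the distance in Mb from the first annotated base of ITGA1, in PRO-seq (squares) and RNA-seq without doxycycline (circles). The fitted value of ITGA1, 10.63, depends on the prior count because the parental libraries held no count. ITGA1 was not analysed in PRO-seq, and ITGA2 is the gene well above 0 in both assays.

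ITGA5, the fibronectin-binding alpha subunit, was lower in regrown cells in run-on and in steady-state RNA. PRO-seq gave 15.5, 14.5 and 16.9 CPM in parental and 11.6, 5.59 and 4.45 CPM in regrown libraries. The first regrown pool was nearer to the parental libraries than the others were, but the groups did not overlap. The log2 change was -1.13 ± 0.31 (edgeR, adjusted p = 0.018). This call was lost, with changes of -1.17, -1.09 and -0.97, when parental replicate 2, parental replicate 3 or regrown replicate 2 was left out (adjusted p = 0.0504, 0.0697 and 0.0619). RNA-seq without doxycycline gave 8.92, 8.05 and 7.69 CPM against 1.83, 1.13 and 3.25 CPM, so every regrown pool was below every parental library. The log2 change was -1.90 ± 0.32 (adjusted p = 0.000285). In the libraries labelled knockout the levels were 7.15, 6.54 and 8.48 CPM against 1.91, 1.58 and 1.37 CPM, and the change was -2.19 ± 0.21 (adjusted p = 5.17e-05). ITGA5 in DGE had at most 12 counts in any library and was not tested.

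The window before the ITGA5 start is shown because the run-on signal of the gene fell (chr12:54419267-54419516, minus strand, GRCh38.p14, from RefSeq). It was searched on both strands for TGANTCA, the motif of AP-1 factors, and for TGGGAA, a core of IKZF1 sites. The same was done for ITGAV (chr2:186589806-186590055, plus strand, GRCh38.p14). It was chosen by the size of its changes in both assays, which had opposite signs. They were -0.49 in PRO-seq and 0.30 in RNA-seq without doxycycline, where it was not called.
ITGA5: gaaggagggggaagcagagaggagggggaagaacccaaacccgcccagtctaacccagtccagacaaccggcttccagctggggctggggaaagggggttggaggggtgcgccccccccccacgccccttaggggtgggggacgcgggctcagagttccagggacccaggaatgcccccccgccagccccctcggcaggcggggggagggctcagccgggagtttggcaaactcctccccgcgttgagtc
ITGAV: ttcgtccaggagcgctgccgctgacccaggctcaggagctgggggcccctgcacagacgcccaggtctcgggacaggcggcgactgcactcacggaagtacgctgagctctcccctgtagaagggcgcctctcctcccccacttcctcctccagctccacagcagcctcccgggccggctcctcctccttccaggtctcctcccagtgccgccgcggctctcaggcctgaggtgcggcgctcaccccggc
Neither motif lies in these windows, nor in any of the 10 windows that RefSeq gives for 7 of the members. Over 35116 such windows of the same length, 6.57% held TGANTCA and 20.8% TGGGAA. In ITGA5 a TGANTCA match crosses the start, with 6 bases before it and 1 after, and it is in capitals in a 30-base stretch (chr12:54419257-54419286, minus strand) that was looked at after the window had been read.
ITGA5 start: actcctccccgcgtTGAGTCAttcgcctct
Of windows that also take in the 50 bases after the start, 300 bases in all, 7.71% held TGANTCA. A match describes the letters and not a bound site.

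ITGAV and ITGB1 fell in run-on signal, and neither was called in RNA-seq or DGE. For ITGAV, whose pairs bind RGD ligands, PRO-seq gave 111, 135 and 118 CPM in parental and 95.3, 84.3 and 81.6 CPM in regrown libraries. The groups did not overlap, and the log2 change was -0.49 ± 0.11 (edgeR, adjusted p = 0.00696). Its RNA without doxycycline was 77.6, 82.0 and 70.1 CPM against 89.6, 66.2 and 109 CPM, which overlap. The RNA change was 0.30 ± 0.14 (adjusted p = 0.101), and without regrown replicate 2 it was 0.47 (adjusted p = 0.00214), above 0 where PRO-seq was below. ITGB1, the common beta subunit, had 48.7, 45.2 and 42.1 CPM in parental and 33.2, 32.0 and 31.2 CPM in regrown PRO-seq libraries. These groups were apart too, at -0.51 ± 0.11 (adjusted p = 0.00504). ITGB1 RNA was 81.6 ± 4.94 CPM against 70.8 ± 7.46 CPM (SD, n = 3), a change of -0.11 ± 0.10 with a 95% interval from -0.33 to 0.11 (adjusted p = 0.422). In DGE under DMSO, where neither gene passed the filter, ITGB1 held 24 counts in parental and 10 in regrown libraries, and its CPM values did not overlap (17.2 to 26.9 against 8.36 to 10.8). ITGAV held 51 and 23 counts there. With no filter these were log2 changes of -1.20 ± 0.61 and -1.10 ± 0.43, below 0 as in PRO-seq but not called (adjusted p = 0.457 and 0.197). Whether run-on and RNA changes differed was not tested, since they come from different cells, libraries and counts.

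ITGA6, the laminin-binding alpha subunit, did not pass the test in PRO-seq, with -0.14 ± 0.13 (edgeR, adjusted p = 0.453) and overlapping groups. In RNA-seq it was 0.25 ± 0.14 without doxycycline (adjusted p = 0.148), and 0.37 without regrown replicate 2 (adjusted p = 0.0285). With the guide induced its levels were 43.0, 31.2 and 35.5 CPM in parental and 28.4, 27.3 and 25.2 CPM in regrown libraries, and it was lower in the regrown ones. The change was -0.44 ± 0.12 (adjusted p = 0.0197) and was not called without parental knockout replicate 3, regrown knockout replicate 2 or regrown knockout replicate 3, at -0.47, -0.44 and -0.41 (adjusted p = 0.0557, 0.0692 and 0.0764). ITGB2, the beta subunit of leukocytes, was low in RNA-seq, at 3.97, 4.29 and 4.95 CPM in parental and 6.27, 6.12 and 6.85 CPM in regrown libraries without doxycycline. Although these did not overlap and the change of 0.64 ± 0.22 was called (adjusted p = 0.0322), it was not called with the replicate number as a block (0.64, adjusted p = 0.0615), nor when parental replicate 1, 2 or 3 or regrown replicate 3 was left out (0.57 to 0.73, adjusted p = 0.0517 to 0.102). It was also lost with scaling by library size alone (0.54, adjusted p = 0.0649) and with no filter on low counts (0.60, adjusted p = 0.0853). With the guide induced its change was 0.43 ± 0.17 (adjusted p = 0.0726), or 0.57 without regrown knockout replicate 1 (adjusted p = 0.0345). Its PRO-seq change was 0.047 ± 0.13 (adjusted p = 0.823). Genes named as antisense overlap ITGB2, ITGA5, ITGA6, ITGAL and ITGA1, the last by PELO-AS1 and ITGA2-AS1. The strand used in counting RNA-seq reads is not given in the sources used here. In PRO-seq PELO-AS1 rose by 0.55 ± 0.15 in regrown cells (edgeR, adjusted p = 0.0159). ITGA2-AS1 was not called there (0.94 ± 0.45, adjusted p = 0.141). Their part in the ITGA1 counts was not tested.

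ITGA4, ITGAL and ITGB7 were close to 0 in SU-DHL-1. Over 3 libraries each, ITGA4 held 0 to 3 counts in the 4 groups of the ZFP91 table, ITGAL 0 to 6 and ITGB7 2 to 11. These 3 did not pass the filter in any comparison within SU-DHL-1, and no fold is given for them there.

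In PRO-seq 3 of the 5 members tested were called, all lower, where 30.2% of the 16456 genes tested were called. RNA-seq without doxycycline called 4 of 7 members, 3 of them higher, where 43.7% of 13379 genes were called. With the guide induced, 4 of 7 were called, 2 in each direction, where 38.4% of 13444 genes were called. The median log2 change of the tested members was -0.49, 0.30 and -0.046 in these 3 comparisons. Over all genes tested it was 0.022, -0.0025 and 2.3e-05. ITGA1 entered both RNA-seq counts only through the regrown group, where it is high. Given shares of this size, the counts of called members say little about the set, and the results lie in which members moved. The 2 RNA-seq comparisons use different libraries. Myeloid marker RNA also differed between parental and regrown cells without doxycycline: the 7 listed genes summed to 324 to 339 CPM and 25.8 to 31.5 CPM. CD163 made up most of the parental sum and went from 313 to 5.66 CPM, while S100A9 went the other way, from 1.29 to 15.7 CPM (0.0646 to 14.6 CPM in PRO-seq). In RNA-seq S100A8 and LYZ were at 0 in both groups and CD14 was below 0.06 CPM, and their part in the integrin results was not tested.

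**Figure D3:**
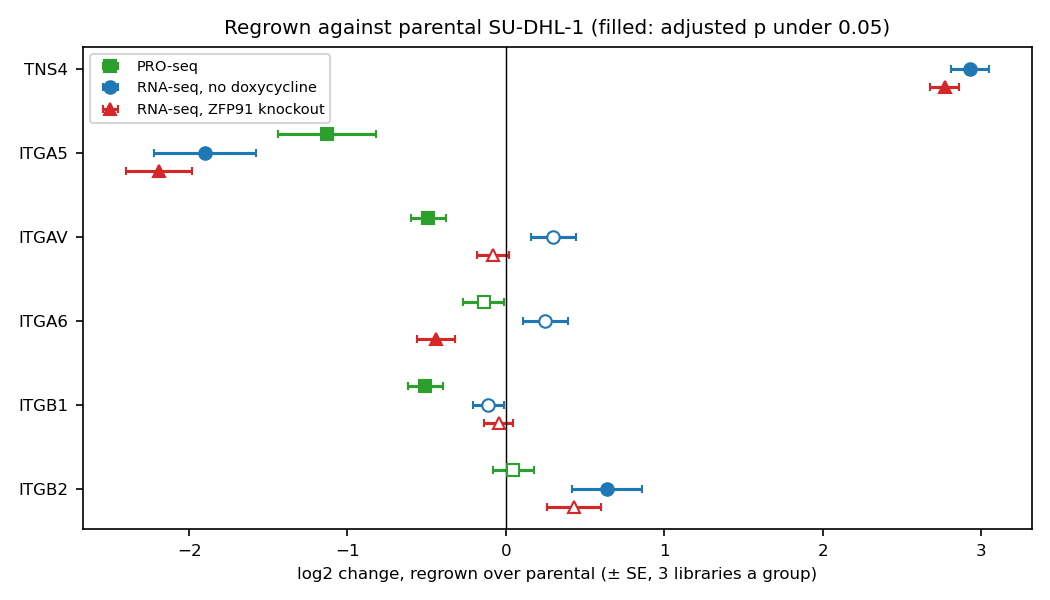
Log2 change of regrown over parental SU-DHL-1 (± SE, 3 libraries a group) for 6 members in PRO-seq (squares) and in RNA-seq without doxycycline (circles) and with the ZFP91 guide induced (triangles); filled symbols have an adjusted p under 0.05. TNS4 lies near 3 and ITGA5 below -1 wherever they were measured, while ITGAV and ITGB1 are below 0 in PRO-seq and near 0 in RNA-seq.

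Other genes of adhesion moved in both directions between regrown and parental cells. RNA-seq without doxycycline called 43.7% of all genes tested. Among the other integrin subunits it raised 4 and lowered 3 of 9 tested. The lowest p-values were those of ITGB4, the laminin-binding partner of ITGA6 (1.35 ± 0.094, adjusted p = 7.51e-08), and ITGAX, a partner of ITGB2 (-1.36 ± 0.23, adjusted p = 0.000277). Of the ligands, 2 of 12 rose and 4 fell, and SPP1 (osteopontin), which ITGAV pairs bind, fell by 1.2 ± 0.18 on the log2 scale. Of the adaptors and activators, 12 of 32 rose and 9 fell. TLN2, a talin, rose by 1.79 ± 0.15 and FERMT3, the kindlin of blood cells, by 1.06 ± 0.095. Of the tetraspanins and partners, 3 of 11 rose and 3 fell, with CD82 at -3.07 ± 0.21 and SLC3A2 at -0.59 ± 0.086. The list medians were -0.047, -0.20, 0.12 and 0.22, in the order given, around -0.0025 for all genes. In PRO-seq 30.2% of all genes tested were called. There 1 subunit was raised and 3 lowered of 9, and 1 ligand raised and 3 lowered of 12. Of the adaptors, 4 were raised and 10 lowered of 31, and of the tetraspanins and partners 2 raised and 2 lowered of 11. CD82 fell in run-on signal as well, by 1.88 ± 0.27, whereas SLC3A2 rose there, by 0.39 ± 0.10 (adjusted p = 0.0133).

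Lenalidomide for 18 h called no member with edgeR or with DESeq2, and of the members that passed the filter, ITGAV in parental and TNS4 in regrown cells, neither had an unadjusted p under 0.05. In parental cells, where 0.845% of 5796 genes were called, only ITGAV passed the filter. It had 10, 24 and 17 counts with DMSO and 16, 13 and 0 with the drug, a log2 change of -0.36 ± 0.45 (edgeR, adjusted p = 0.909; 95% interval -1.27 to 0.55). The library with 0 counts is the one of 41571 counts in all. With no filter ITGA5, at 6 against 19 counts, gave 1.98 ± 0.73 (adjusted p = 0.489), and none of the other members was called either. In regrown cells, where 0.23% of 5661 genes were called, TNS4 passed the filter and gave -0.31 ± 0.47 (adjusted p = 0.997; interval -1.27 to 0.65). The difference between the 2 responses was called for 0.0% of 6838 genes (edgeR; DESeq2 also called 0, and 285 had an unadjusted p under 0.05), and for TNS4 it was 0.69 ± 1.16 (adjusted p = 1). For ITGAV the difference was 0.78 ± 0.77, also not called. The intervals within parental and within regrown cells leave changes of about 2-fold undetectable at this depth. Those of the difference were wider, from -1.65 to 3.04 for TNS4 and from -0.78 to 2.34 for ITGAV. Larger changes would be missed there. The ligand SPP1, in contrast, rose by 5.33 ± 0.39 in parental and 4.94 ± 0.54 in regrown cells (adjusted p = 2.04e-11 and 1.11e-06).

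After the ZFP91 guide was induced, no member was called in parental cells and 1, ITGA6, was called in regrown cells. In parental cells, 6 members were tested, of which edgeR and DESeq2 called 0 and 0 had an unadjusted p under 0.05; 0.427% of 13354 genes were called. The changes there ran from -0.12 ± 0.16 for ITGA5 to 0.39 ± 0.18 for ITGB2, and TNS4 was 0.29 ± 0.14 (adjusted p = 0.632), with all 3 induced libraries above the 3 controls. In regrown cells, where 31.9% of 13107 genes were called, ITGA6 was 42.7, 32.7 and 42.2 CPM without and 28.4, 27.3 and 25.2 CPM with doxycycline. All 3 pools were lower when induced, by 0.58 ± 0.12 on average, a log2 change of -0.58 (adjusted p = 0.00272).

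ITGA1 and ITGAV just missed the threshold in regrown cells. ITGA1 went from 11.4, 5.87 and 13.8 to 7.07, 6.31 and 7.54 CPM, so it was lower in pools 1 and 3 and higher in pool 2 (-0.60 ± 0.26, adjusted p = 0.0912). ITGAV gave -0.34 ± 0.15 (adjusted p = 0.0952). Both were called without regrown control replicate 2, at -0.87 and -0.49 (adjusted p = 0.00106 and 0.00173), and with no filter on low counts. TNS4 was 0.15 ± 0.08 (adjusted p = 0.163), ITGA5 -0.39 ± 0.42, ITGB1 0.11 ± 0.098 and ITGB2 0.22 ± 0.19, none of them called.

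In this table gene length moved with the groups. Each library's correlation, over genes, of its deviation in log2 CPM with log2 gene length was 0.0753 to 0.238 in the regrown controls and -0.103 to -0.0434 in the regrown induced libraries. With that score as a covariate edgeR called 0 genes in regrown cells, with 1037 at an unadjusted p under 0.05. ITGA6 was -0.23 (adjusted p = 0.841), and ITGA1, ITGA5 and ITGAV changed sign, to 0.95, 1.41 and 0.62. The scores of these groups do not overlap, so the guide and the length pattern cannot be told apart there. The parental controls, at -0.151 to 0.0228, did not overlap the regrown controls in this score either. Between these groups TNS4, ITGA1 and ITGA5 kept their call with the score, at 3.04, 9.17 and -2.81, ITGB2 lost its call (0.73, adjusted p = 0.265), and ITGA6 and ITGAV, not called in either fit, went from above 0 to -0.21 and -0.24.

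The response to the guide differed between regrown and parental cells for 1 of 7 members tested, where 9.81% of 14267 genes were called. ITGA6 had a difference of -0.68 ± 0.20 (adjusted p = 0.0457), which was not called when any of 9 of the 12 libraries was left out (-0.70 to -0.52, adjusted p = 0.0904 to 0.131). The 3 whose loss kept the call were parental control replicate 1, parental knockout replicate 2 and regrown control replicate 2. Without 7 of the 12, no gene at all was called in this comparison. TNS4 gave -0.14 ± 0.13 (adjusted p = 0.498), ITGAV -0.36 ± 0.20 (adjusted p = 0.245), or -0.51 without regrown control replicate 2 (adjusted p = 0.0407), and ITGA1 had too few parental counts for its difference to be read.

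**Figure D4:**
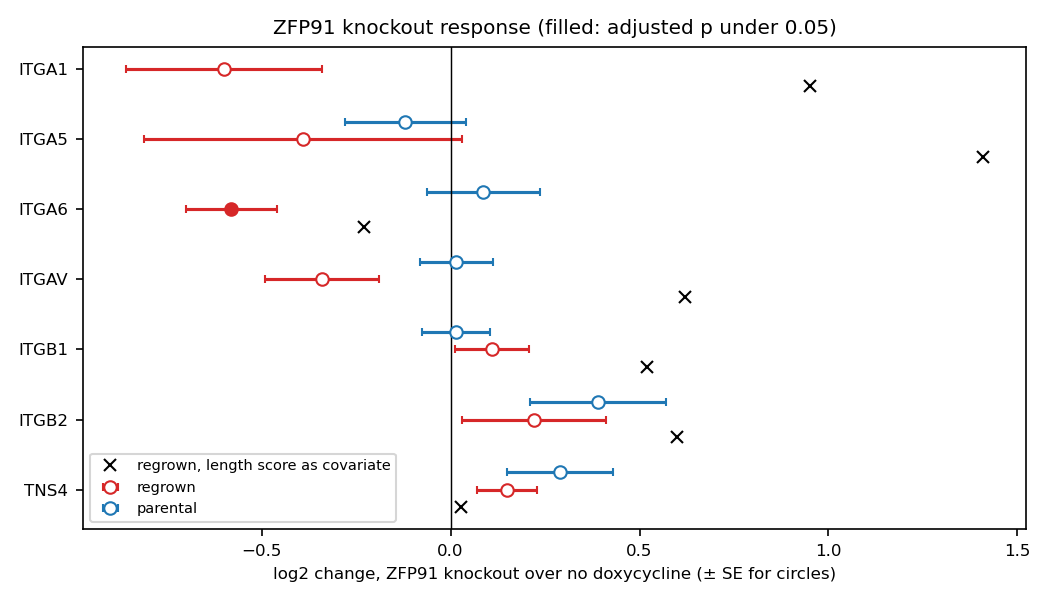
Log2 change of libraries labelled ZFP91 knockout over those without doxycycline (± SE, 3 libraries a group) in parental and regrown SU-DHL-1, for members tested; crosses are the regrown values with the length score as a covariate. ITGA6 in regrown cells is the filled point, and the crosses of ITGA1, ITGA5 and ITGAV lie on the other side of 0 from their circles.

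CSNK2B is the regulatory subunit of casein kinase 2. With its vector, ITGA5 and ITGB1 fell in SU-DHL-1, and ITGAL, TNS4 and ITGA6 fell in KI-JK. Some markers of other cell types moved with the same contrasts. The 7 stromal and endothelial markers summed to 1.99 to 15.1 CPM in SU-DHL-1 with the empty vector and 1.3 to 1.68 CPM with CSNK2B, mainly through collagens such as COL3A1 (3.13 and 0.139 CPM), with CDH5 at 0 and 0.0175 CPM. The 5 epithelial markers in KI-JK summed to 3.14 to 28.3 and 0.125 to 8.4 CPM, which overlap, with KRT8 at 10.4 and 1.83 CPM and EPCAM at 0.36 and 0.112 CPM. Their part in the integrin results was not tested. In SU-DHL-1, 2 of 6 members tested were called, where 6.74% of 13727 genes were called. ITGA5 was 12.4, 13.9 and 14.6 CPM with the empty vector and 10.2, 9.26 and 10.1 CPM with CSNK2B, so the groups did not overlap (-0.46 ± 0.096, adjusted p = 0.00283). ITGB1, its partner, was 133, 126 and 125 CPM against 111, 112 and 109 CPM, a smaller change with no overlap (-0.21 ± 0.042, adjusted p = 0.0015). TNS4 was 2.90, 2.42 and 2.87 CPM against 4.05, 4.25 and 3.25 CPM; these groups did not overlap, but the change of 0.48 ± 0.18 was not called (adjusted p = 0.137). ITGA1 had 2, 0 and 1 counts with the empty vector and 6, 4 and 4 with CSNK2B, a ratio of 4.46 (95% counting interval 1.24 to 24.2). It did not pass the filter, and its level of 0.242 ± 0.0605 CPM was far below that in regrown cells.

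In KI-JK, 3 of 10 members were called, all lower, where 35.7% of 14104 genes were called. ITGAL, the alpha subunit that binds ICAMs, was 18.3, 19.4 and 21.1 CPM with the empty vector and 13.7, 13.9 and 14.2 CPM with CSNK2B. The highest CSNK2B library was below the lowest control (-0.47 ± 0.082, adjusted p = 9.56e-05). TNS4 was 22.7, 22.2 and 23.2 CPM against 16.3, 16.0 and 15.7 CPM, again with no overlap (-0.49 ± 0.073, adjusted p = 1.84e-05). ITGA6 fell likewise, from 20.0, 20.5 and 18.0 to 15.3, 13.3 and 15.8 CPM (-0.37 ± 0.087, adjusted p = 0.00174). ITGA4 was not called, at -0.06 ± 0.04 with an interval from -0.14 to 0.022. ITGA1 gave -0.24 ± 0.097 (adjusted p = 0.0636), ITGB2 -1.04 ± 0.53 on 51 against 25 counts (-1.44, adjusted p = 0.041, without empty vector replicate 3), and ITGB7 -0.66 ± 0.47 on 49 against 31.

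The difference between the lines in this response was itself called for 4 of 10 members, where 19.2% of 15564 genes were called. For TNS4 it was -0.95 ± 0.17 (KI-JK minus SU-DHL-1, adjusted p = 0.000192), since TNS4 lay above its controls in SU-DHL-1 and below them in KI-JK. Of the 24 tested genes nearest to TNS4, 9 were raised and 0 lowered with CSNK2B in SU-DHL-1, at a median of 0.15, and 6 were raised and 3 lowered in KI-JK, at a median of -0.0043. For ITGB1 it was 0.27 ± 0.067 (adjusted p = 0.00411) and for ITGA6 -0.32 ± 0.10 (adjusted p = 0.0228). The call for ITGA6 was lost without SU-DHL-1 empty vector replicate 1, SU-DHL-1 CSNK2B replicate 2 or KI-JK CSNK2B replicate 2, at -0.31, -0.29 and -0.26 (adjusted p = 0.0565, 0.0618 and 0.0743). ITGA1 gave -2.26 ± 0.71 (adjusted p = 0.0234), which rests on the 3 and 14 counts of the SU-DHL-1 groups and was lost without SU-DHL-1 empty vector replicate 2 or CSNK2B replicate 1 (-1.86 and -2.03, adjusted p = 0.0867 and 0.0914). The difference for ITGA5 was 0.37 ± 0.13 (adjusted p = 0.054), or 0.44 and 0.41 without empty vector replicate 1 of SU-DHL-1 or of KI-JK (adjusted p = 0.0402 and 0.0414), and that for ITGAL, with 2 counts in all of SU-DHL-1, was -0.41 ± 2.05. ITGA4 gave 2.66 ± 1.01 (adjusted p = 0.0616), which rests on 8 counts with the empty vector and 1 with CSNK2B in SU-DHL-1. It was called without SU-DHL-1 empty vector replicate 3 or CSNK2B replicate 3, at 2.98 and 4.64 (adjusted p = 0.0417 and 0.0353). CSNK2B itself rose less in KI-JK, by a difference of -0.86 ± 0.079.

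**Figure D5:**
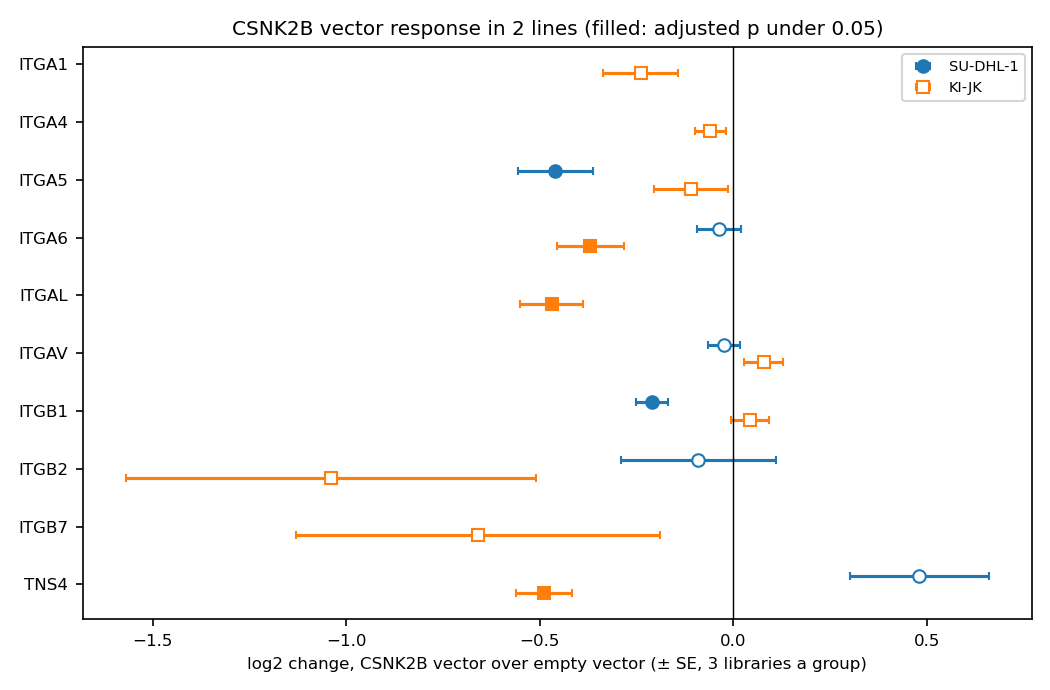
Log2 change of the CSNK2B vector over the empty vector (± SE, 3 libraries a group) in SU-DHL-1 (circles) and KI-JK (squares) for the 10 members, with filled symbols for an adjusted p under 0.05; members that did not pass the count filter in SU-DHL-1 have no circle. TNS4 lies at 0.48 in SU-DHL-1 and -0.49 in KI-JK.

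Among the other adhesion genes, the vector in KI-JK, where 35.7% of all genes were called, lowered 3 of 11 other integrin subunits and raised none. ITGAX was lowest, at -1.38 ± 0.066 (adjusted p = 1.18e-12), followed in order of p by ITGA3 at -0.18 ± 0.035. It raised 4 of 15 ligands and lowered 4, raised 7 of 29 adaptors and activators and lowered 8, and raised 3 of 13 tetraspanins and partners and lowered 4. In SU-DHL-1, where 6.74% of all genes were called, none of 8 other subunits was called, 4 of 12 ligands fell, and 3 of 32 adaptors rose while 9 fell. APBB1IP (RIAM), which brings talin to integrins, fell in both lines, by 0.59 ± 0.044 in SU-DHL-1 and by 1.15 ± 0.11 in KI-JK.

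The lines differed in their integrins before any CSNK2B was added. With the empty vector, 9 of 10 members were called, where 78.8% of 14786 genes were called between KI-JK and SU-DHL-1, so the count itself is no mark of these genes. Line, serum content and table cannot be told apart in this comparison. ITGA4 had 140, 146 and 143 CPM in KI-JK and 0.249, 0.0692 and 0.0598 CPM in SU-DHL-1, or 10495 counts against 8 (log2 change 9.93 ± 0.13, edgeR, adjusted p = 8.68e-33). ITGAL had 1442 counts against 1, a ratio of 1090 with a 95% counting interval of 194 to 42900. ITGA1 had 923 counts against 3, a ratio of 232 (79.0 to 1120). These 3 alpha subunits were thus well expressed in KI-JK and near 0 in SU-DHL-1. They passed the filter on low counts only through KI-JK, where they are high, so their calls add no support to these counts.

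TNS4 was 22.7 ± 0.508 CPM in KI-JK and 2.73 ± 0.268 CPM in SU-DHL-1 (SD, n = 3), a log2 change of 3.08 ± 0.11 (edgeR, adjusted p = 5.91e-21). ITGB7, the partner of ITGA4 in lymphocyte homing, was higher too but barely expressed, at 0.665 ± 0.109 against 0.132 ± 0.0699 CPM (2.21 ± 0.54). It held 49 counts in KI-JK and 8 in SU-DHL-1. As it passed the filter on low counts only through KI-JK, where it is high, its call adds no support to these counts. In the other direction, ITGB2 was 0.693 ± 0.388 CPM in KI-JK and 3.88 ± 0.947 CPM in SU-DHL-1 (-2.41 ± 0.32, adjusted p = 7.24e-08). Its partner ITGAL was therefore high in the line in which ITGB2 was low. ITGA6, ITGAV and ITGB1 were lower in KI-JK by 0.86 ± 0.067, 0.60 ± 0.047 and 0.55 ± 0.044 on the log2 scale. The 24 tested genes nearest to ITGB1 had a median of -0.69, with 17 lowered and 3 raised, so ITGB1 was not lowered more than that median, while those nearest to ITGA6 and ITGAV had medians of 0.13 and 0.17. ITGA5 did not pass the test, with 0.013 ± 0.098 and an interval from -0.19 to 0.21.

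Over the 8 RNA-seq groups TNS4 ran from 2.73 CPM in SU-DHL-1 with the empty vector, through 3.85 with CSNK2B, 7.64 and 9.15 in parental cells without and with the guide induced, and 16.0 and 22.7 in KI-JK with CSNK2B and without, to 54.6 and 62.4 in regrown controls and induced libraries. Neighbours in this order within a table were not called apart in SU-DHL-1 or between guide arms, but were in KI-JK. Levels from separate tables were not tested against each other. ITGA1 was at or under 0.242 CPM in the 4 groups of parental and vector-bearing SU-DHL-1, at 6.98 ± 0.619 and 10.4 ± 4.07 CPM in the regrown groups and at 10.5 ± 0.32 and 12.6 ± 0.727 CPM in KI-JK. ITGA5 ran from 1.62 ± 0.271 and 2.07 ± 1.08 CPM in regrown cells, whose values overlap, to 13.6 ± 1.15 CPM in SU-DHL-1 with the empty vector and 13.3 ± 1.2 CPM in KI-JK.

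Over the 18 SU-DHL-1 RNA-seq libraries, the genes whose log2(CPM + 1) followed a member most closely were found among 11496 genes with a mean of 1 CPM or more. For TNS4 they were WIPF1 (Pearson r = 0.995) and BCL2L11 (0.991). For ITGA1 they were LONP2 (0.996) and PIK3CG (0.994), and for ITGA5 USP27X (0.986) and ERRFI1 (0.984). ITGB1 was followed by CENPJ (0.972) and FAM107B (0.971), ITGA6 by ZKSCAN1 (0.948) and AHCYL1 (0.943), ITGAV by PRKD3 (0.933) and ARHGAP11A (0.929), and ITGB2 by SLC6A9 (0.91) and SLC39A14 (0.905). The libraries share groups and tables, and 6 of the 18 are regrown, so these values describe such contrasts and are no test. ITGA4, ITGAL and ITGB7 were below the mean of 1 CPM.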

How the data were processed

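The deposited tables held gene counts as whole numbers, which the authors had not normalized. Per the submitters' processing notes, PRO-seq used cutadapt 1.14, Bowtie 1.2.2, featureCounts 1.6.2 and hg38, DGE used Bowtie2 2.2.3 and hg19, and RNA-seq used STAR 2.6.1d and hg38. The RNA-seq counting tool, its strand setting and any use of molecular identifiers in DGE are not given in the sources used here, so counting intervals cover counting error only.

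Each comparison was fitted to its own groups with edgeR 4.0.16 in R 4.3.3 (filterByExpr, TMM scaling, quasi-likelihood test, two-sided), and p-values were adjusted by Benjamini-Hochberg across every gene that passed the filter. Called means an adjusted p under 0.05. There were 12 comparisons of 2 groups and 3 differences between responses (interactions). SE is the log2 change over the square root of F, and 95% intervals use the degrees of freedom that F and p imply. A fold against a group at 0 takes 3 counts in its place, and with 1 to 3 counts a ratio carries an exact 95% counting interval. On simulated counts 97% (RNA-seq, 13331 genes) and 88.5% (DGE, 5879 genes) of genes changed 4-fold were recovered in the comparison of regrown with parental cells. No replicates agreed within sampling noise (smallest chi-square per degree of freedom 1.34). Alternatives covered scaling, filter, DESeq2 1.42.0, the replicate block, 1 fit of all 4 groups and each library left out. The length score was added after the data had been seen and used 86.5% of 14267 genes.

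All 10 members are named, with per-library values for called ones. Members, gene lists and tests were chosen with earlier results of these data known. Same-numbered regrown libraries with and without drug or doxycycline are from the same pool, per the labels; their deviations correlated at -0.068 to 0.118.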

Additional observations from a re-analysis of the deposited data

Results flagged for a closer look

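Differences between 2 responses were called for 4 members in the CSNK2B comparison of the lines and for 1 in the ZFP91 comparison of the backgrounds. KI-JK minus SU-DHL-1, the response to the CSNK2B vector differed by -0.95 on the log2 scale for TNS4, -2.26 for ITGA1, -0.32 for ITGA6 and 0.27 for ITGB1. Regrown minus parental, the response of ITGA6 to the ZFP91 guide differed by -0.68. Those for TNS4 and ITGB1 were called in every alternative run; those for ITGA1 and ITGA6 were not.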

How the results depend on the processing

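Across 80 results of single members and 1134 alternative settings, 1053 kept the direction and the call, 32 lost the call (7 results), 16 gained it (11 results) and 33 changed sign (18 results). The changes of TNS4 and ITGA1 between regrown and parental cells and between the lines kept direction and call in each alternative run. So did those of ITGA5 between regrown and parental cells in RNA-seq. ITGA1, and TNS4 in DGE, entered these tests only through the group where they are high. Their kept calls thus add no support beyond the counts. With the replicate block ITGB2 in regrown against parental controls lost its call (0.64, adjusted p = 0.0615), and no other member's call changed; the numbers are shared pools only between arms of regrown cells.

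For single members, scaling by library size alone moved ITGAV and ITGB1 after the guide in parental cells to -0.018 each. ITGA5 between the lines was -0.03 with library size alone, -0.028 with no filter and -0.00045 with DESeq2. With the length score, the response to the guide in regrown cells was 0.95 for ITGA1, 1.41 for ITGA5 and 0.62 for ITGAV, the regrown against parental controls gave -0.21 for ITGA6 and -0.24 for ITGAV, and the difference between the guide responses was 0.069 for ITGA5; the cause was not tested.

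Counts of genes called moved most in DGE and in the ZFP91 table. Lenalidomide in parental cells gave 30 with DESeq2 and 28 with all 4 groups in 1 fit, and in regrown cells 20 with no filter and 20 at a mean of 1 CPM or more. Regrown against parental DGE gave 240 with DESeq2 under DMSO, and 82 with DESeq2 and 244 with all 4 groups under lenalidomide. There the count of members was 1, TNS4, with no filter, at 1 CPM or more and with all 4 groups. The guide in parental cells gave 231 genes with no filter, 198 with DESeq2 and 1262 with the length score. In regrown cells the length score gave 0 genes and 0 members, and no filter gave 3 members. Regrown against parental controls gave 2627 genes with the length score. The difference between the guide responses gave 2333 genes with no filter, 2441 with DESeq2 and 288 with the length score, and 0 members with library size alone or the length score.

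Leaving out 1 library at a time, genes called ranged from 3245 to 5322 in PRO-seq. In DGE they ranged from 25 to 105 for lenalidomide in parental cells (105 without parental lenalidomide replicate 3), from 7 to 13 in regrown cells, from 222 to 512 for regrown against parental under DMSO, from 23 to 149 under lenalidomide and from 0 to 1 for the difference. In RNA-seq they ranged from 0 to 110 for the guide in parental cells, from 2410 to 5519 in regrown cells, from 0 to 3355 for their difference and from 582 to 902 for CSNK2B in SU-DHL-1. Members called ranged from 0 to 1 for regrown against parental DGE under lenalidomide, from 1 to 3 for the guide in regrown cells and from 0 to 2 for its difference from parental.

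Small changes that crossed 0 in the same way were ITGB2 in PRO-seq (-0.061 to 0.13), TNS4 under lenalidomide in regrown cells (-0.90 to 0.26) and the lenalidomide difference of ITGAV (-1.10 to 1.13). After the guide in parental cells they were ITGA6 (-0.046 to 0.19), ITGAV (-0.055 to 0.056) and ITGB1 (-0.044 to 0.054), and in regrown cells ITGA5 (-0.67 to 0.097), whose difference from parental ran from -0.54 to 0.21. In regrown against parental cells with the guide induced they were ITGAV (-0.14 to 0.0031) and ITGB1 (-0.12 to 0.014). With CSNK2B in SU-DHL-1 they were ITGAV (-0.046 to 0.0033) and ITGB2 (-0.30 to 0.05), between the CSNK2B responses ITGAL (-2.44 to 1.59), and between the lines ITGA5 (-0.062 to 0.091).

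Depth limits DGE most: only TNS4 and ITGAV passed its filter. ITGA1, ITGA4, ITGAL and ITGB7 in SU-DHL-1 rest on few counts wherever no level above 1 CPM is given. Leaving 2 libraries in a group relies on the spread of the other group.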
